A study of Rattus norvegicus with 6 samples.

Results

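Integrins, laminins and the proteins that tie the basement membrane to the cell were described in 2 cultured cell types of the newborn rat. The genes were chosen by name: all integrin alpha and beta genes, the laminin chains, the nidogens, perlecan and agrin, dystroglycan with its sarcoglycan, dystrophin and utrophin partners, and 5 cytoplasmic proteins of integrin adhesions. Of 54 such genes 47 were measured here, among 18166 genes in all. The other genes of the rule were not analysed here.

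The arrays compared NSCPs (nerve-derived Schwann cell precursors, cultured from sciatic nerve) with SKPs (skin-derived precursors, cultured from back skin), each from 3 separate isolates hybridised to their own array, all from newborn wild-type Sprague-Dawley pups. The labels give 1 run-on culture protocol for all samples. It was read here as NSCPs on plates coated with laminin at 4 μg/ml and poly-D-lysine at 30 μg/ml. Their medium was read as holding 2% N2, 5 μM forskolin and neuregulin-1β at 25 ng/ml. SKPs were read as spheres at 50000 cells/ml with 40 ng/ml FGF2 and 20 ng/ml EGF. On that reading the laminin coat, growth on plates or as spheres, the medium and the tissue of origin differ at once between the 2 cell types. They cannot be told apart. Values are log2 expression values, and a difference is NSCPs minus SKPs on that scale. A gene is called higher or lower in NSCPs where limma's adjusted p, over all 18166 genes, was under 0.05. A level of 5.32 is taken as background, which is the 95th percentile over 226 genes of olfactory or vomeronasal receptors, and a fold against a mean at or below it rests on a background level.

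Integrins are receptors of one alpha and one beta chain that join the extracellular matrix to the actin skeleton. Laminins are trimers of an alpha, a beta and a gamma chain that polymerise on the cell surface and, linked by nidogen to collagen IV, form the basement membrane. Every mature Schwann cell is wrapped in such a membrane, which it binds through laminin-binding integrins and through dystroglycan, and Schwann cells that lack laminin or its integrin receptors fail to sort and myelinate axons in mice. Dermal mesenchyme sits instead in a fibrillar matrix of collagen and fibronectin.

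The markers fixed for the 2 cell types went with the labels. All 7 measured Schwann lineage markers were higher in NSCPs, with mean levels per array of 10.78, 10.91 and 10.86 in NSCPs against 7.28, 7.18 and 7.09 in SKPs. All 8 dermal fibroblast markers were lower, with 7.15, 7.43 and 7.33 in NSCPs against 12.25, 12.27 and 12.31 in SKPs. These NSCP means cover unlike genes. Lum, Dcn and Prrx1 were within background in NSCPs. The fibrillar collagen genes Col1a1, Col1a2 and Col3a1 had NSCP means of 11.80, 11.85 and 10.69, against 12.75, 12.59 and 12.59 in SKPs. All 10 leukocyte markers were lower too, with 5.29, 5.32 and 5.17 in NSCPs against 10.96, 9.90 and 10.26 in SKPs, so the SKP cultures carried a leukocyte signal that was largest in replicate 1. Arrays of one cell type correlated at 0.984 to 0.993 across genes.

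Among the 47 genes 12 were higher and 14 lower in NSCPs, and 21 were not called. The 26 called genes are 55.3% of the members, against 43.7% of all genes called, 25.2% higher and 18.6% lower. A difference of at least 2-fold was called for 19 members (40.4%), 10 higher and 9 lower, against 17.4% of all genes (7.45% higher and 9.98% lower). The arrays of the groups did not overlap for 34 members (72.3%), 17 above and 17 below, against 56.6% of all genes (34.4% above and 22.1% below). The members' median difference was -0.11, and the median of all genes was 0.14. The largest excess in NSCPs among them was that of Itgb8 (4.48), followed by Itgb4, Itga7 and Itga6, and the largest deficits were those of Itgb2 (-3.95), Itgal and Itga5.

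**Figure D1:**
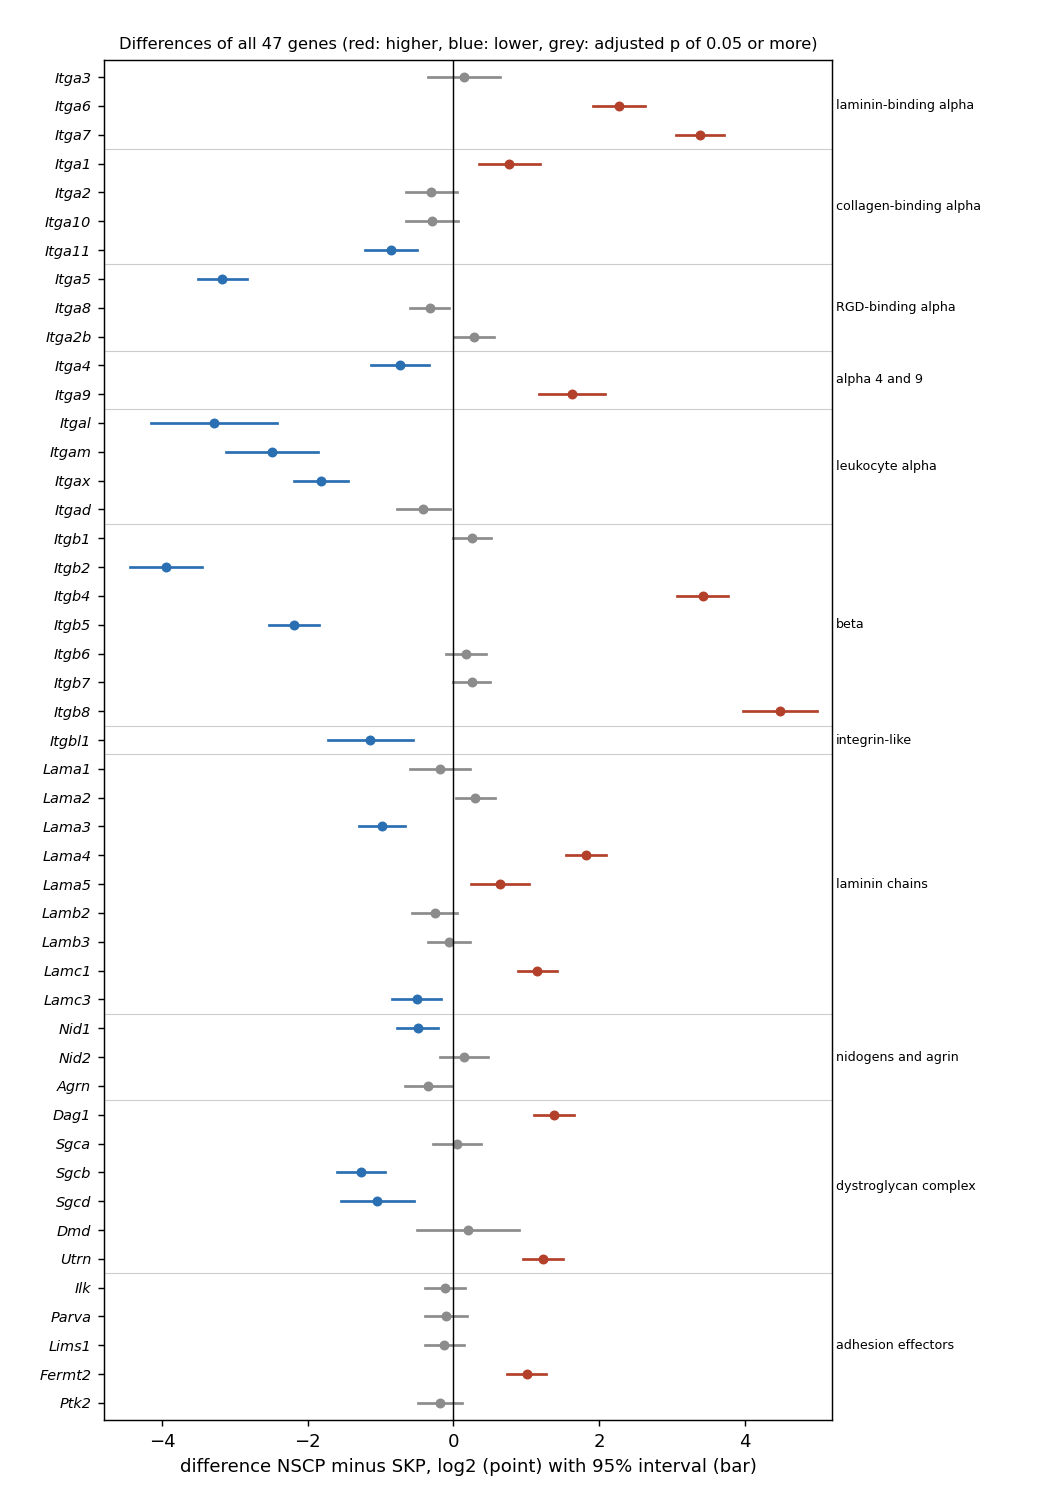
Difference NSCPs minus SKPs on the log2 scale (x axis, point) with its 95% interval (bar) for each of the 47 genes (rows, grouped by role). Red marks genes higher in NSCPs, blue lower and grey not called; 12 are red and 14 blue, with Itgb8 farthest to the right at 4.48 and Itgb2 farthest to the left at -3.95.

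Promoter windows from RefSeq's table (build GRCr8) are shown for a pair of neighbouring leukocyte integrins, which were lower in NSCPs, and for Itgb8, which had the largest excess. They were picked after the values and the motif matches had been seen. Windows were found for 35 of the 47 members, 38 windows in all with 3 for Dmd and 2 for Lims1, and run from 250 bases before to 50 bases after the annotated start. Itgam and Itgax, which lie next to each other on chromosome 1 with Itgad, encode leukocyte alpha chains and were lower in NSCPs, and Itgb8 was higher. Capitals mark the letters GAGGAA, a core bound by ETS factors such as the myeloid factor Spi1, in Itgam and Itgax, and the letters ACAAAG, a core bound by SOX factors, in Itgb8, each sought on both strands. A second SOX form (ACAATG) was marked in Itgb8 where present. The windows are chr1:192089342-192089641 (plus strand) for Itgam, chr1:192149799-192150098 (plus strand) for Itgax and chr6:146351196-146351495 (minus strand) for Itgb8.
Itgam: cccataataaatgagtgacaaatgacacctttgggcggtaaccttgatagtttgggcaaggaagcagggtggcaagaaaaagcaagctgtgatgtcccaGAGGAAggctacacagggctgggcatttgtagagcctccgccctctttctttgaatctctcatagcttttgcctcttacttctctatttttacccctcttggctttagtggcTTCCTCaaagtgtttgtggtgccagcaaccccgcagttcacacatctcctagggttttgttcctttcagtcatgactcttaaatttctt
Itgax: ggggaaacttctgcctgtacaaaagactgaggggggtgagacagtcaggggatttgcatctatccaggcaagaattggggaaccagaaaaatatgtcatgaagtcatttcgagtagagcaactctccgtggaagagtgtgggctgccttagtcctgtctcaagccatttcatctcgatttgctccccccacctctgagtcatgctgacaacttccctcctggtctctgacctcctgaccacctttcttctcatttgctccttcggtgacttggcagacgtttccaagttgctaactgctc
Itgb8: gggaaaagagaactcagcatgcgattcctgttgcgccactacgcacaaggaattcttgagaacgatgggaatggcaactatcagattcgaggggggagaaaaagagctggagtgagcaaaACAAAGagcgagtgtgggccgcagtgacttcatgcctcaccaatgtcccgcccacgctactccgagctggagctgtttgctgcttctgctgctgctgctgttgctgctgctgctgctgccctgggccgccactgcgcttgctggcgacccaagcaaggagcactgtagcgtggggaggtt

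The Itgam window held GAGGAA at 151 bases before the start on the gene's strand and at 39 bases before it on the opposite strand. The Itgax window held no match to these letters. GAGGAA was found in 27.6% of all 33469 windows, in 2 of the 7 windows of members higher in NSCPs, in 6 of the 12 windows of lower members and in 3 of the 19 of members not called. The Itgb8 window held ACAAAG once, at 130 bases before the start. ACAAAG was found in 18.8% of all windows, and in 2 of 7 windows of higher members, 2 of 12 of lower members and 4 of 19 of those not called. Among the last are the Dmd windows chrX:53278763-53279062 and chrX:53278794-53279093. They overlap in most of their length, so counts for members not called take the same letters more than once. In all 4 motifs were searched, chosen with the members' differences known. The second SOX form, ACAATG, was absent from the Itgb8 window and was found in 13.2% of all windows, in 0 of 7 windows of higher members, 1 of 12 of lower members and 0 of 19 of those not called. The E-box, CANNTG, bound by basic helix-loop-helix factors, was found in 72.1% of all windows, in 2 of 7 windows of higher members, 9 of 12 of lower members and 11 of 19 of those not called. These counts were not tested and describe the letters only.

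Laminin-binding alpha chains were higher in NSCPs in 2 of 3 members, against 25.2% of all genes. Itga7, the alpha chain of a laminin receptor of muscle and Schwann cells, stood at 9.92, 10.26 and 10.03 in NSCPs, against 6.72, 6.48 and 6.83 in SKPs. The groups lay far apart, and the difference of 3.39 (SE 0.15, adjusted p = 4.30e-07) is a 10.5-fold excess. Itga6, whose product pairs with the beta 1 or the beta 4 chain, stood at 11.77, 11.75 and 11.89 in NSCPs, against 9.61, 9.22 and 9.75 in SKPs. All NSCP arrays were above all SKP arrays, with a 4.84-fold difference (2.27 on the log2 scale, SE 0.15, adjusted p = 6.39e-06), and the SKP level was well above background. Itga3, the third laminin-binding chain and one also used by epithelia, stood at 6.67, 7.05 and 6.77 in NSCPs, against 6.76, 6.23 and 7.07 in SKPs. Its groups overlapped, and the difference of 0.15 had a 95% interval from -0.35 to 0.64.

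Itgb4, the beta chain that pairs only with alpha 6 and anchors hemidesmosomes in epithelia, stood at 9.04, 9.30 and 9.11 in NSCPs, against 5.67, 5.52 and 5.99 in SKPs. It was 10.7-fold higher in NSCPs (difference 3.42, SE 0.15, adjusted p = 5.41e-07), with an SKP mean of 5.73 ± 0.24 (SD, n = 3), little above background. Of the 7 measured keratinocyte markers 2 were higher in NSCPs and 0 lower (28.6% called, against 43.7% of all genes). Their mean per array was 5.35, 5.68 and 5.49 in NSCPs against 5.15, 4.99 and 5.12 in SKPs. The higher ones were Cdh1, the E-cadherin gene, at 7.24, 7.77 and 7.64 in NSCPs against 7.10, 5.62 and 6.69 in SKPs (2.12-fold, adjusted p = 0.0306), and Epcam, within background in both groups (difference 0.81, adjusted p = 0.00765). The Cdh1 call was lost without NSCP replicate 2 (adjusted p = 0.114) or NSCP replicate 3 (0.0822), and the difference was 0.66 without SKP replicate 2, against 1.08 with all arrays. Tp63, the transcription factor gene that defines basal keratinocytes, was within background in both groups (difference 0.0089, adjusted p = 0.963). The keratin genes Krt14 (0.16), Krt15 (0.31), Krt1 (0.43) and Krt10 (0.16) had positive differences and were not called. Of these only Krt1 was within background, in both groups, and all NSCP arrays of Krt15 lay above its SKP arrays. The part of keratinocytes in the Itgb4 difference was not tested. Lamb3, a chain of the epidermal laminin, was within background in both groups as well. Lama3, an alpha chain of epithelial laminin, was within background in NSCPs only and was lower there (difference -0.98).

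The common partner Itgb1, which encodes the beta 1 chain of most matrix-binding integrins, differed little. It stood at 12.07, 11.91 and 11.99 in NSCPs, against 11.70, 11.69 and 11.80 in SKPs. The arrays did not overlap, but the difference of 0.26 (SE 0.11, adjusted p = 0.100) was not called, and the median of all genes was 0.14. It was called higher after median centring of the arrays and with a trended and robust prior, with a lowest adjusted p of 0.0273 over all alternatives. The alpha 6 and alpha 7 differences therefore stand beside a beta 1 difference whose 95% interval ended at 0.52.

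Among the other beta chains, Itgb8 had the largest difference of the whole set. Its product pairs with the alpha v chain and activates latent TGF-beta. The level of Itgb8 was 12.13, 11.76 and 12.14 in NSCPs, against 7.99, 7.10 and 7.50 in SKPs, a 22.3-fold excess (difference 4.48, SE 0.22, adjusted p = 1.02e-06). Itgb5, another partner of alpha v and part of a vitronectin receptor, went the other way, with 7.96, 8.34 and 8.11 in NSCPs against 10.53, 10.29 and 10.17 in SKPs. It was 4.55-fold lower in NSCPs (difference -2.19, SE 0.15, adjusted p = 6.88e-06). The NSCP arrays thus lay wholly above the SKP arrays for Itgb8 and wholly below them for Itgb5, while Itgav itself was not analysed here. Itgb6, the epithelial partner of alpha v, was within background in both groups, and Itgb7, a leukocyte chain, lay at 5.52 ± 0.04 in NSCP arrays and 5.27 ± 0.06 in SKP arrays (SD, n = 3 each) and was not called (adjusted p = 0.101).

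Itga5, which encodes the alpha chain of the main fibronectin receptor, stood at 6.81, 7.29 and 6.92 in NSCPs, against 10.21, 10.11 and 10.21 in SKPs. It was 9.01-fold lower in NSCPs (difference -3.17, SE 0.15, adjusted p = 6.92e-07), and both groups were above background. Of the other measured chains that bind the RGD motif, Itga8, a receptor chain for nephronectin and fibronectin, stood at 10.15, 10.03 and 10.12 in NSCPs, against 10.31, 10.53 and 10.42 in SKPs. These arrays did not overlap, but the difference of -0.32 just missed the threshold (adjusted p = 0.0535). It was called lower under 5 of the 16 alternatives. Itga2b, the platelet chain, was within background in both groups.

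Alpha 4 and alpha 9 form a subfamily of their own, whose receptors bind VCAM-1, a fibronectin segment or tenascin. Itga9 stood at 9.14, 9.17 and 8.85 in NSCPs, against 7.85, 7.10 and 7.33 in SKPs, and was 3.09-fold higher (difference 1.63, SE 0.20, adjusted p = 2.22e-04). Itga4, a chain of leukocytes and of neural crest cells, stood at 10.62, 9.97 and 10.42 in NSCPs, against 10.99, 11.12 and 11.11 in SKPs. It was 1.66-fold lower (difference -0.73, SE 0.17, adjusted p = 0.00849), and its SKP arrays were nearly alike. The 2 closest relatives were thus called in opposite directions.

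Of the 4 collagen-binding alpha chains 1 was higher and 1 lower, neither by 2-fold. The called share was 50%, near the 43.7% of all genes. Itga1, a chain with a preference for collagen IV, stood at 9.27, 8.83 and 9.26 in NSCPs, against 8.39, 8.07 and 8.59 in SKPs (difference 0.77, SE 0.18, adjusted p = 0.00850). Itga11, a receptor chain of fibroblasts for fibrillar collagen, stood at 5.46, 5.75 and 5.23 in NSCPs, against 6.35, 6.20 and 6.46 in SKPs (difference -0.86, SE 0.16, adjusted p = 0.00229). The NSCP mean of Itga11 was just above background. Itga2, at 6.46 ± 0.19 in NSCP arrays and 6.77 ± 0.19 in SKP arrays, and Itga10, at 5.44 ± 0.17 in NSCP arrays and 5.73 ± 0.23 in SKP arrays (SD, n = 3 each), overlapped between the groups and were not called.

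**Figure D2:**
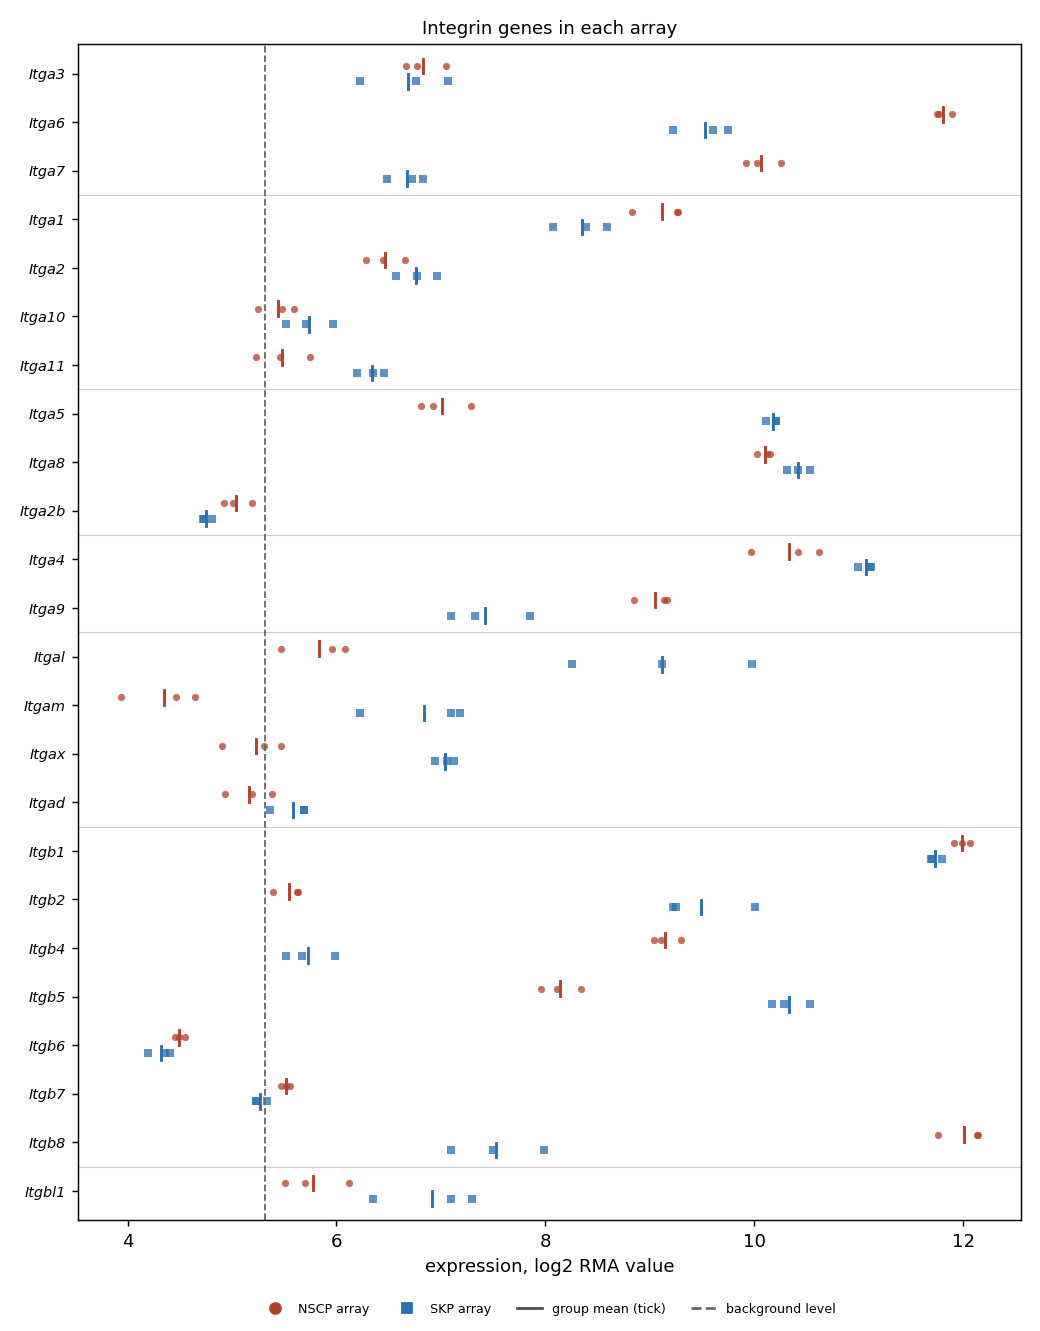
Log2 expression (x axis) of the 24 measured integrin genes (rows, grouped by role) in each NSCP array (red circles, upper line of each row) and SKP array (blue squares, lower line); short ticks are group means and the dashed line is the background level of 5.32. Itga6, Itga7, Itgb4 and Itgb8 have all NSCP arrays far to the right of the SKP arrays, and Itga5, Itgb2, Itgb5 and Itgal far to the left.

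Integrins of leukocytes, built from the beta 2 chain with a leukocyte alpha chain, had 4 of 5 measured members lower in NSCPs. The lower share of all genes was 18.6%. Itgb2 stood at 5.63, 5.39 and 5.62 in NSCPs, against 10.01, 9.22 and 9.25 in SKPs, a 15.4-fold deficit (difference -3.95, SE 0.21, adjusted p = 1.68e-06). Its NSCP mean was close to background. Itgal, the alpha chain of the lymphocyte and macrophage receptor LFA-1, stood at 5.47, 6.08 and 5.96 in NSCPs, against 9.98, 8.26 and 9.12 in SKPs (difference -3.29, SE 0.38, adjusted p = 1.61e-04). Itgam, the complement receptor chain of macrophages and neutrophils, stood at 4.65, 4.46 and 3.94 in NSCPs, against 7.18, 6.23 and 7.10 in SKPs (difference -2.49, SE 0.28, adjusted p = 1.29e-04). Its NSCP mean was within background, so its fold rests on a background level.

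Itgax, the chain typical of dendritic cells, stood at 4.90, 5.47 and 5.31 in NSCPs, against 6.94, 7.13 and 7.06 in SKPs (difference -1.82, SE 0.16, adjusted p = 3.32e-05), with an NSCP mean within background. Itgad, its close relative and neighbour, stood at 5.17 ± 0.23 in NSCP arrays and 5.58 ± 0.19 in SKP arrays (SD, n = 3 each) and was not called (adjusted p = 0.0647). Itgam, Itgax and Itgad resemble each other in sequence, and probes for one may read transcripts of another, so their separate values are uncertain. In SKPs the leukocyte marker means were 10.96 in replicate 1, 10.26 in replicate 3 and 9.90 in replicate 2. Itgal, Itgam and Itgb2 had the same order, but Itgax did not. Parts of that order rest on nearly level values: Itgb2 was 9.25 in replicate 3 and 9.22 in replicate 2. Likewise, Itgam was 7.18 in replicate 1 and 7.10 in replicate 3.

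These differences stand beside the leukocyte markers, of which 10 of 10 were lower in NSCPs, and the part of leukocytes in the SKP cultures in them was not tested. In such bulk samples fewer cells of a type and less RNA per cell cannot be told apart. Without SKP replicate 1, which had the highest leukocyte markers, the differences were -2.86 for Itgal, -2.31 for Itgam, -1.87 for Itgax and -3.69 for Itgb2, and all 4 were still called. The remaining SKP arrays had leukocyte marker means of 9.90 and 10.26, against 5.17 to 5.32 in NSCPs. Leaving out replicate 1 therefore does not remove the leukocyte signal and cannot show its part. Without the 5 measured leukocyte integrins, a count added after seeing the data, 12 of the other 42 members were higher and 10 lower in NSCPs. Itga4 and Itgb7, which are also chains of leukocytes, stayed among the 42, and Itga4 is among the 10. The shares of all genes were 25.2% higher and 18.6% lower.

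**Figure D3:**
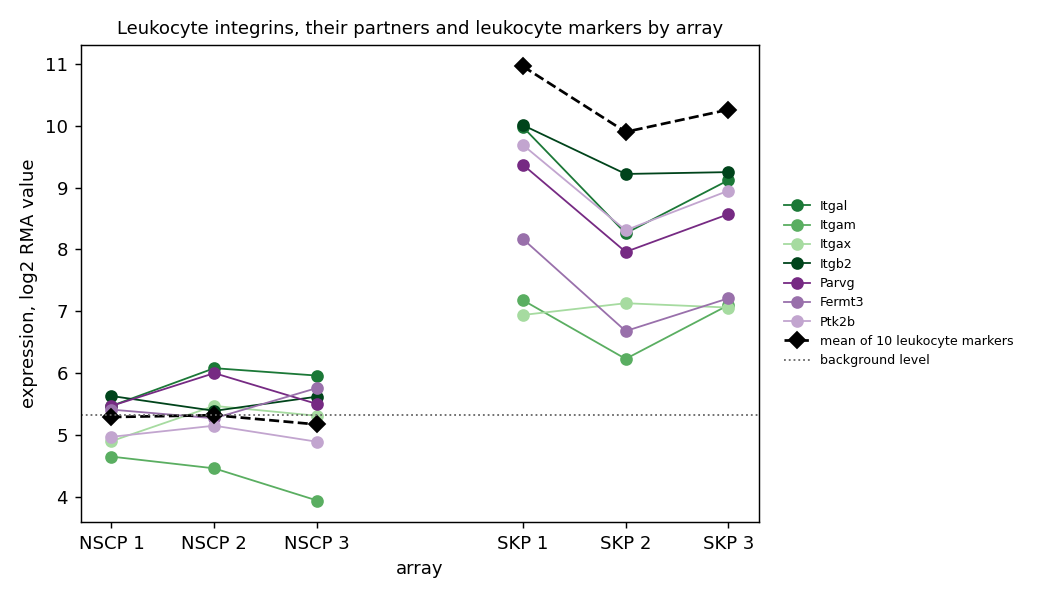
Log2 expression (y axis) of 4 leukocyte integrin genes (green), 3 adhesion genes typical of leukocytes (purple) and the mean of 10 leukocyte markers (black diamonds) in each array (x axis); lines only join the points of one gene within a group, and the dotted line is the background level. The marker mean lies at 9.90 to 10.96 in the SKP arrays and at 5.17 to 5.32 in the NSCP arrays. Itgal, Itgam, Itgb2, Parvg, Fermt3 and Ptk2b are highest in SKP 1 and lowest in SKP 2, though Itgb2 is nearly level in SKP 2 and SKP 3.

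Itgbl1 encodes a secreted protein with EGF-like repeats like those of beta integrins and is not itself a receptor chain. It stood at 5.51, 6.12 and 5.70 in NSCPs, against 7.30, 6.35 and 7.10 in SKPs, and was 2.20-fold lower (difference -1.14, SE 0.26, adjusted p = 0.00703). The SKP arrays spread widely, and the highest NSCP array came close to the lowest SKP array.

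Of the 9 measured laminin chains 3 were higher and 2 lower in NSCPs, which is 55.6% called, against 43.7% of all genes. Lama4, the alpha 4 chain of Schwann cell and vascular basement membranes, stood at 12.47, 12.66 and 12.68 in NSCPs, against 10.79, 10.85 and 10.70 in SKPs, a 3.53-fold excess (difference 1.82, SE 0.12, adjusted p = 5.38e-06). The only member with a second probe set was Lama4, and that probe set gave a difference of 2.30 in the same direction. Lamc1, the gamma 1 chain found in most laminins, stood at 11.73, 11.78 and 11.84 in NSCPs, against 10.55, 10.76 and 10.58 in SKPs and was 2.22-fold higher (difference 1.15, SE 0.12, adjusted p = 7.83e-05). Both genes were thus higher in every NSCP array. Endothelial cells also make alpha 4 laminin, and of their 5 measured markers 2 were higher and 1 lower (60% called, against 43.7% of all genes). Mean levels per array of these markers were 5.33 to 5.43 in NSCPs and 5.09 to 5.26 in SKPs. Tek, an angiopoietin receptor gene, stood at 6.69, 6.82 and 6.89 in NSCPs, against 4.67, 5.05 and 4.95 in SKPs (3.76-fold higher against a background level, adjusted p = 9.46e-06), the direction of Lama4. Esam was lower (-0.67), Emcn was higher by 0.47 within background, and Cdh5 and Tie1 were within background in both groups and not called. The part of endothelial cells in the laminin differences was not tested.

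Lama2, the alpha 2 chain that dominates the Schwann cell and muscle basement membrane, differed little. It stood at 11.70, 11.53 and 11.64 in NSCPs, against 11.24, 11.34 and 11.39 in SKPs, with a difference of 0.30 (SE 0.12, 95% interval 0.04 to 0.57, adjusted p = 0.0646). The arrays did not overlap, and the gene was called higher under 6 of the 16 alternatives. Lama5, a broadly used alpha chain, stood at 7.07, 7.25 and 7.08 in NSCPs, against 6.10, 6.64 and 6.73 in SKPs (difference 0.64, SE 0.18, adjusted p = 0.0176). That call was lost without NSCP replicate 2 (adjusted p = 0.0615).

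The lower laminin chains were dim. Lama3, an alpha chain of epithelial laminin, stood at 5.08, 5.21 and 5.39 in NSCPs, against 6.39, 6.08 and 6.14 in SKPs (difference -0.98, SE 0.14, adjusted p = 5.43e-04), with its NSCP mean within background. Lamc3, the gamma 3 chain, stood at 5.86, 6.27 and 6.14 in NSCPs, against 6.72, 6.44 and 6.61 in SKPs (difference -0.50, SE 0.15, adjusted p = 0.0226). The Lamc3 call did not survive leaving out NSCP replicate 1 (adjusted p = 0.0672), NSCP replicate 3 (0.0511), SKP replicate 1 (0.0741) or SKP replicate 3 (0.0692), nor renewed quantile normalization (0.0877). Lamb2, the beta 2 chain of synaptic and perineurial laminin, at 8.42 ± 0.13 in NSCP arrays and 8.67 ± 0.16 in SKP arrays, and Lama1, at 5.31 ± 0.14 in NSCP arrays and 5.49 ± 0.35 in SKP arrays (SD, n = 3 each), were not called.

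The nidogen genes, whose products link the laminin and collagen IV networks, and the agrin gene differed by less than 2-fold. Hspg2, the perlecan gene, was not analysed here. Nid1, the main nidogen, stood at 12.44, 12.39 and 12.38 in NSCPs, against 12.74, 13.03 and 12.90 in SKPs, and was 1.41-fold lower (difference -0.49, SE 0.12, adjusted p = 0.0109). Agrn, which encodes a heparan sulfate proteoglycan that binds laminin and dystroglycan, stood at 8.51, 8.82 and 8.60 in NSCPs, against 9.14, 8.86 and 8.99 in SKPs and missed the threshold (difference -0.35, adjusted p = 0.0669). Its arrays did not overlap, and Agrn was called lower under 4 of the 16 alternatives. Nid2 stood at 10.23, 10.45 and 10.21 in NSCPs, against 10.04, 10.40 and 10.01 in SKPs, and its groups overlapped.

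Dystroglycan, made from Dag1, is the other laminin receptor of Schwann cells and connects through dystrophin or utrophin to actin. Dag1 stood at 12.52, 12.70 and 12.70 in NSCPs, against 11.31, 11.16 and 11.31 in SKPs and was 2.60-fold higher (difference 1.38, SE 0.12, adjusted p = 2.79e-05). Utrn, which encodes utrophin, stood at 10.60, 10.38 and 10.58 in NSCPs, against 9.27, 9.28 and 9.32 in SKPs and was 2.35-fold higher (difference 1.23, SE 0.12, adjusted p = 5.15e-05). The receptor and its utrophin link were both higher in all NSCP arrays, with small spread in either group.

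The sarcoglycans, which flank dystroglycan in the membrane, went the other way where they were called. Sgcb stood at 10.39, 9.94 and 10.27 in NSCPs, against 11.39, 11.46 and 11.56 in SKPs (2.42-fold lower, difference -1.27, SE 0.14, adjusted p = 1.48e-04). Sgcd stood at 5.66, 5.37 and 5.49 in NSCPs, against 6.58, 6.07 and 7.0 in SKPs (2.06-fold lower, difference -1.04, SE 0.22, adjusted p = 0.00514), and its NSCP mean was just above background. Sgca, the sarcoglycan of striated muscle, was alike in its arrays, at 5.82 ± 0.20 in NSCP arrays and 5.77 ± 0.13 in SKP arrays (SD, n = 3 each), and was not called. Among 6 measured markers of skeletal muscle, a tissue in which this complex is prominent, 1 was higher and 0 lower. The called share was 16.7%, against 43.7% of all genes. Mean levels per array were 5.84 to 5.87 in NSCPs and 5.40 to 5.64 in SKPs. Of 5 measured pericyte and smooth muscle markers 0 were higher and 2 lower (40% called). The lower ones were Rgs5 (-0.91) and Notch3 (-0.93), the direction of Sgcb and Sgcd, and the other 3 were not called. Means of that list per array were 6.22 to 6.24 in NSCPs and 6.23 to 6.67 in SKPs. The part of such cells in the sarcoglycan differences was not tested.

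Dmd, the dystrophin gene, stood at 7.37, 7.23 and 7.09 in NSCPs, against 6.42, 6.87 and 7.80 in SKPs. The SKP arrays spanned the NSCP range, and the difference of 0.20 was not called (SE 0.30, adjusted p = 0.620). SKP replicates decided its sign: it was -0.11 without SKP replicate 1 and 0.58, and called (adjusted p = 0.0433), without SKP replicate 3. Dmd makes several transcripts from separate promoters, which one value per gene does not tell apart.

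Of the 5 genes of cytoplasmic adhesion proteins in the set 1 was called (20%, against 43.7% of all genes). The longer adhesion plaque list given below had 15 of 25 called (60%). Fermt2, which encodes kindlin-2, an activator that binds integrin beta tails, stood at 11.29, 11.21 and 11.39 in NSCPs, against 10.24, 10.24 and 10.38 in SKPs and was 2.01-fold higher (difference 1.01, SE 0.12, adjusted p = 1.64e-04). Ilk, Lims1 and Parva, whose products form one complex under beta 1 integrins, differed by -0.11 (95% interval -0.39 to 0.16), -0.13 (-0.39 to 0.14) and -0.10 (-0.39 to 0.19). Ptk2, the gene of focal adhesion kinase, differed by -0.18 (-0.48 to 0.12). Each of these 4 genes had overlapping arrays, and the intervals leave out differences of 0.5 in either direction.

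**Figure D4:**
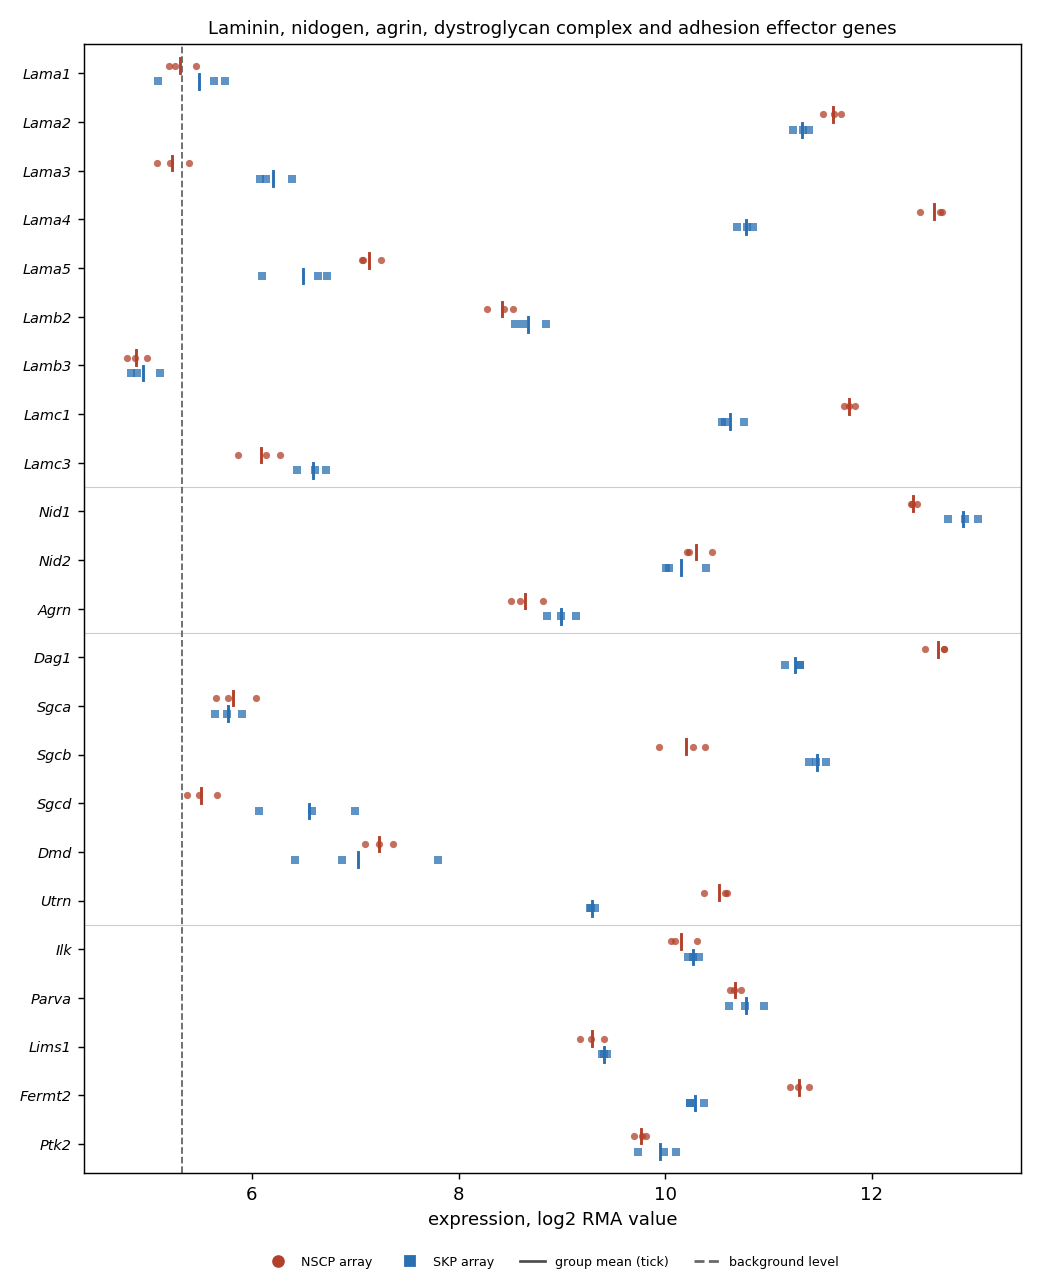
Log2 expression (x axis) of the 23 measured laminin, nidogen, agrin, dystroglycan complex and adhesion effector genes (rows) in each NSCP array (red circles, upper line of each row) and SKP array (blue squares, lower line); short ticks are group means and the dashed line is the background level of 5.32. Lama4, Lamc1, Dag1, Utrn and Fermt2 lie to the right in all NSCP arrays, Sgcb lies to the left, and Dmd has SKP arrays from 6.42 to 7.80 on both sides of the NSCP arrays.

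Replicates of the 47 genes agreed closely, with a median SD of 0.14 in NSCPs and 0.16 in SKPs, near the 0.17 in NSCPs and 0.14 in SKPs over all genes. In NSCPs 0 members had an SD above 0.5. In SKPs 4 did: Itgal, Itgam, Itgbl1 and Dmd, with the highest SD of 0.86 for Itgal.

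Further genes of the same structures were taken from 3 lists. Of 15 measured basement membrane collagens and associated genes 1 was higher and 8 lower in NSCPs, with a median difference of -0.39. The called share was 60%, against 43.7% of all genes (25.2% higher and 18.6% lower). Fbln1, which encodes the matrix glycoprotein fibulin-1, stood at 6.51, 6.49 and 6.38 in NSCPs, against 10.51, 10.53 and 9.77 in SKPs (14.1-fold lower, difference -3.81, SE 0.20, adjusted p = 1.50e-06). Fbln2 (-1.81), Smoc2 (-1.62) and Ntn4 (-1.48), a netrin of basement membranes, were lower as well. Col4a1 and Col4a2, the ubiquitous collagen IV chains, were named after their values were seen and were lower by differences of -0.95 and -0.71. Of the other collagen IV chains in the list, Col4a5 was lower too (-0.39), and Col4a3 (0.14) and Col4a4 (0.24) were not called. The Col4a5 call was lost without NSCP replicate 1 (adjusted p = 0.0558), NSCP replicate 3 (0.115), SKP replicate 2 (0.105) or SKP replicate 3 (0.0731).

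Among 12 measured partners and modifiers of dystroglycan 3 were higher and 3 lower, with a median difference of -0.06. The called share was 50%, near the 43.7% of all genes. Prx, which encodes periaxin, a Schwann cell protein that couples to dystroglycan through the Drp2 protein in mice, stood at 9.14, 10.05 and 9.79 in NSCPs, against 5.97, 5.94 and 6.24 in SKPs, a 12.2-fold excess (difference 3.61, SE 0.22, adjusted p = 3.75e-06). Drp2 itself stood at 5.61, 5.60 and 5.81 in NSCPs, against 7.23, 6.98 and 7.51 in SKPs and was 2.97-fold lower (difference -1.57, SE 0.16, adjusted p = 6.91e-05). The 2 genes of this link were thus called in opposite directions. Pomgnt1, an enzyme that extends the sugar chains of dystroglycan, was higher by 0.84, and Sntb2, a syntrophin gene, was lower (-1.09).

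Of 25 measured adhesion plaque genes 5 were higher and 10 lower in NSCPs, with a median difference of -0.21. The called share was 60%, against 43.7% of all genes (25.2% higher and 18.6% lower). Ptk2b, which encodes the kinase Pyk2, stood at 4.97, 5.15 and 4.89 in NSCPs, against 9.69, 8.31 and 8.95 in SKPs (difference -3.98, SE 0.30, adjusted p = 1.16e-05), with its NSCP mean within background. Parvg, the parvin of blood cells, stood at 5.47, 6.0 and 5.50 in NSCPs, against 9.37, 7.96 and 8.57 in SKPs (difference -2.98, SE 0.32, adjusted p = 1.08e-04). Fermt3, the kindlin of blood cells, was named after its values were seen and stood at 5.41, 5.27 and 5.76 in NSCPs, against 8.17, 6.68 and 7.21 in SKPs (difference -1.87). These 3 genes followed the order of the leukocyte markers among the SKP replicates, and without SKP replicate 1 their differences were -3.63, -2.61 and -1.46, all still called. The remaining SKP arrays also had a high leukocyte marker mean, so that omission does not remove the leukocyte signal.

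Other genes with a large deficit in this list were Kank1 (-2.28), a talin-binding protein gene, and Tgfb1i1 (-2.16), which encodes the paxillin relative Hic-5. Upward, and named after their values were seen, Vcl, the vinculin gene, stood at 11.43, 11.57 and 11.58 in NSCPs, against 10.05, 10.11 and 10.14 in SKPs (2.68-fold higher, adjusted p = 1.67e-05). Lims2, the relative of Lims1, stood at 7.94, 8.49 and 7.97 in NSCPs, against 6.64, 6.14 and 6.38 in SKPs (3.36-fold higher, adjusted p = 1.11e-04). Lims1 was not called while Lims2 was higher, and the difference between the 2 effects was not tested.

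**Figure D5:**
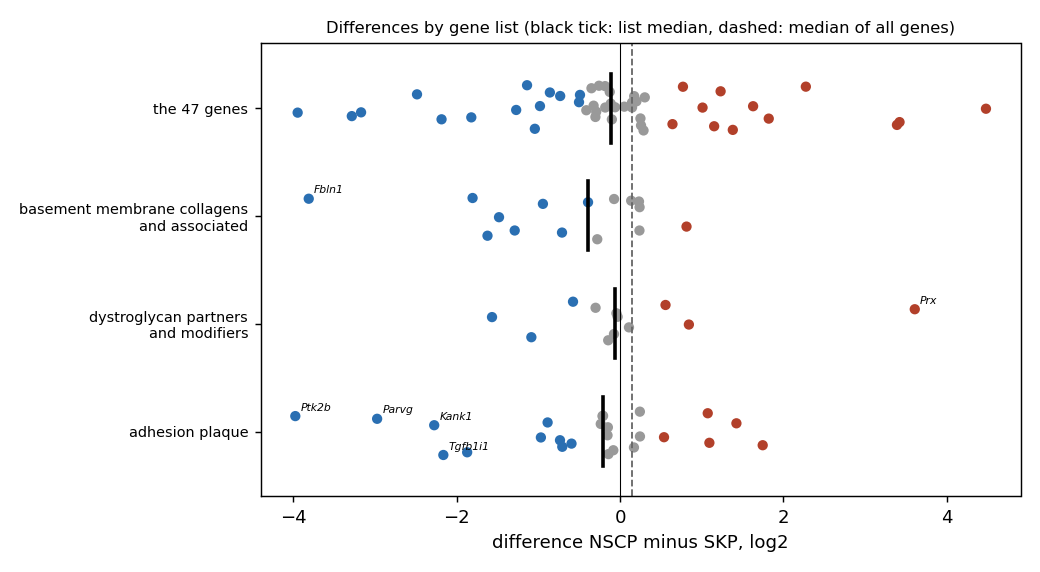
Difference NSCPs minus SKPs on the log2 scale (x axis) of each gene in the set of 47 and in 3 further lists (rows; vertical scatter is only for legibility), with genes higher in NSCPs in red, lower in blue and not called in grey. Black ticks are the list medians of -0.11, -0.39, -0.06 and -0.21 from top to bottom, and the dashed line is the median of all genes, 0.14.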

How the data were processed

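Expression arrays of 3 NSCP and 3 SKP cultures were analysed. The authors deposited 1 log2 value for each probe set on each array, made with RMA in the oligo package, per the submitters' processing notes, which give no version. RMA corrects background, quantile-normalizes the arrays and summarises probes. Quantile normalization hides a shift of all genes in 1 group. The number of arrays limits the precision. The 36685 probe sets were named by the platform's gene table, which gave 18511 of them 1 symbol, 575 several and 17599 none. Each gene was read from its brightest probe set (by the mean of all 6 arrays), with no filter, which left 18166 genes. All 47 members matched RefSeq by Entrez ID. NSCPs were set against SKPs with limma 3.58.1 in R 4.3.3 (lmFit, eBayes, 2-sided, Benjamini-Hochberg over all genes, 95% intervals from the fit), checked on simulated data. Figures used matplotlib 3.10.9.

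The members, their roles and the further lists were chosen with earlier results of these data known. Named genes are the members and, per further list, up to 4 called genes with the largest difference; others, single marker genes and collagen IV chains included, were named after their values were seen. Promoter motifs were searched with these results known, and all 4 are reported. Replicate numbers were not used to pair the cultures in the main fit. Same-numbered arrays had deviations correlated at 0.04, 0.05 and 0.03, and differently numbered arrays at -0.04 to 0.004. Whether the numbers mark paired cultures was not tested. Alternatives were each array left out, the replicate number as a block, 2 renormalizations, 2 filters on dim genes, the mean of probe sets, weights for arrays, a trended and robust prior, limma's treat and a threshold of 0.01.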

Additional observations from a re-analysis of the deposited data

How the results depend on the processing

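Leaving out each array in turn gave 12 to 13 members higher and 13 to 15 lower in NSCPs, against 12 and 14 with all 6 arrays, and 6341 to 7513 of all genes called against 7945. With the replicate number as a block 12 members were higher and 14 lower, and all 26 called members were kept. Testing against a 2-fold change with limma's treat called 5 members higher and 6 lower and 1758 genes in all, and restricting the fit to genes above the median gene left 31 members, 9 of them lower; both follow from how these alternatives are built. Median centring gave 16 members higher and 14 lower, array weights gave 15 higher, 18 lower and 10426 genes called in all, and the filter at the background level gave 13 higher and 17 lower. Itga6, Itga7, Itgb4, Itgb8, Lama4, Itga5, Itgb2, Itgb5, Itgal, Itgam and Itgax were called under all alternatives in which they were tested.

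Among genes that were not called, the sign turned with one array left out for Sgca (-0.058 to 0.137), Dmd (-0.106 to 0.584), Itga3 (-0.0824 to 0.340), Lamb3 (-0.120 to 0.0223) and Tp63 (-0.0736 to 0.114). It also turned with array weights for Dmd (-0.289), Itga3 (-0.125), Lamb3 (0.0669) and Cdh5 (0.0071), with median centring for Lamb3 (0.0051) and with renewed quantile normalization for Tp63 (-0.0112), which also ended the Col4a5 call (adjusted p = 0.0565), as did median centring (0.0558); the cause was not tested. Probe sets give no count, so depth cannot be stated, and genes within background have no measured order.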
